A study of Mus musculus with 12 samples.

Results

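The smooth muscle contractile genes examined here are 10 genes chosen by name: Acta2, Actg2, Myh11, Tagln, Cnn1, Des, Smtn, Myocd, Synpo2 and Lmod1. All 10 were found among the 39179 genes of the deposited table, and all 10 passed the filter on low values, as did 16197 genes in all. RNA was sequenced from prostate tissue of mice aged 4 months, whose strain is a hybrid of 129/SvImJ with C57Bl/6J. The 6 null libraries came from mice homozygous for a null allele of the gene under study, and the 6 wild-type libraries from mice with intact copies. Paraquat, a redox-cycling herbicide, was given to both genotypes, so the treatment is shared and no untreated prostate enters the comparison.

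Smooth muscle surrounds the prostate ducts, forms the walls of blood vessels and contracts at ejaculation. Its cells slide actin filaments along smooth muscle myosin, and calcium entering the cell starts contraction through calmodulin and myosin light chain kinase. Most of the genes for this apparatus are switched on by serum response factor, which binds CArG boxes in their promoters and enhancers, together with its partner myocardin. In bulk tissue, fewer smooth muscle cells and less RNA per cell cannot be told apart.

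Values are the authors' normalized log2 values, so a difference of 1 is a 2-fold change, and each difference is null minus wild type. Libraries 1 to 3 and libraries 4 to 6 of each genotype form 2 sets with closely similar profiles. The median absolute difference between libraries over the tested genes was 0.0776 to 0.141 within a set, 0.274 to 0.352 between sets of a genotype and 0.323 to 0.71 between genotypes. For all 12 libraries the 2 nearest libraries were of the same set. The labels name no animals, and the p-values therefore measure only the spread among libraries, which may be technical. Each gene was therefore tested with limma in 2 ways, across the 12 libraries (n = 6 per genotype) and across the 4 set means (n = 2 per genotype). A gene is called when its limma p, adjusted over all genes tested, was under 0.05. The depth recovered from the values was 14.8 to 21.7 M reads per library. Seminal vesicle secretion genes took 16.2% to 16.4% of the summed linear values in null libraries 1 to 3, 0.717% to 0.728% in null libraries 4 to 6 and at most 0.00115% in wild-type libraries.

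Acta2 and Actg2 belong to a family of 4 muscle actins with nearly the same protein, the others being skeletal Acta1 and cardiac Actc1, so it matters whether reads can tell them apart. The stretches below are 90 bases near the start of the coding sequence (GENCODE transcripts on GRCm38, 5′ to 3′), with capitals at bases unlike Acta2.
Acta2: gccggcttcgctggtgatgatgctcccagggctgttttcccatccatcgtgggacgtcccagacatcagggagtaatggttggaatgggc
Actg2: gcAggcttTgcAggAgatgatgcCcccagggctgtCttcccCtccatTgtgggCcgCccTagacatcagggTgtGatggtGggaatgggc
Acta1: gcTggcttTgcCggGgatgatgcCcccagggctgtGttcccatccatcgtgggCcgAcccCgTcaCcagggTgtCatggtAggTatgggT
Actc1: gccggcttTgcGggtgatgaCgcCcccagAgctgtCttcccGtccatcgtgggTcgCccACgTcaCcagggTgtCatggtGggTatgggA
Actg2 differed from Acta2 at 14 of these bases, Acta1 at 16 and Actc1 at 18. Over the whole longest transcripts, none of the 1936 windows of 100 bases in Acta2 and none of the 1234 in Actg2 occurred unchanged in a transcript of another gene. Tagln shared 33.2% of its windows with other genes, mostly Gm48529, Smtn 7.45% with Gm11946 and Des 4.2% with Gm15179. Matches on either strand were counted, and the strand of a match was not recorded. With no strand setting stated, reads from these stretches cannot be told apart from those of the partner gene, so the values of Tagln in particular may include both.

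Acta2 encodes the alpha actin of vascular and other smooth muscle (ENSMUSG00000035783, GRCm38 chromosome 19, 34241090 to 34255590, minus strand). It lay at 14.41 to 14.49 in null libraries 1 to 3 and, in null libraries 4 to 6, 13.99 to 14.07. The median over all 6 null libraries was 14.24. In wild-type libraries 1 to 3 it lay at 14.44 to 14.48 and in libraries 4 to 6 at 14.85 to 15.02. The median over all 6 wild-type libraries was 14.67. Null libraries 1 to 3 and wild-type libraries 1 to 3 overlapped, while null libraries 4 to 6 were below and wild-type libraries 4 to 6 above every other library. The difference of -0.45 was called over the 12 libraries (SE 0.14, limma adjusted p = 0.013). For set means it had an SE of 0.38 and an adjusted p of 0.436. Without null libraries 4 to 6 it was -0.25 (adjusted p = 0.143), and without wild-type libraries 4 to 6 it was -0.22 (adjusted p = 0.208). Behind these values stood 15688 to 26069 reads per library, so counting error is small beside the spread between sets.

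Actg2, the gamma actin typical of visceral smooth muscle such as gut and bladder wall, did not show that difference (ENSMUSG00000059430, chromosome 6, 83512905 to 83536265). Its values were 12.60 to 12.65 in null libraries 1 to 3 and, in null libraries 4 to 6, 12.28 to 12.32, against 12.20 to 12.23 in wild-type libraries 1 to 3 and 12.68 to 12.87 in wild-type libraries 4 to 6. Both genotypes thus held a higher and a lower set, and the 2 ranges overlapped. The difference was -0.03 (SE 0.13, limma adjusted p = 0.862 over the 12 libraries). Scaling to library totals gave 0.29. Leaving out wild-type libraries 1 to 3 gave -0.30, called lower (limma adjusted p = 0.0276).

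A scaling factor applied to a whole library cancels in the ratio of the 2 smooth muscle actins. Actg2 minus Acta2 was -1.86 to -1.71 in null libraries, with a median of -1.78, against -2.28 to -2.15 in wild-type libraries, with a median of -2.19. All 6 null libraries were above all 6 wild-type libraries. In linear terms Actg2 stood at 29.1% of Acta2 in null prostates and 21.7% in wild-type prostates, before any correction for transcript length. The difference of 0.42 had p = 0.00217 in an exact two-sided permutation test, the smallest p that the 924 divisions of 12 libraries allow, and it treats all 12 libraries as independent. Between the 4 pairings of a null with a wild-type set the difference ran from 0.34 to 0.51.

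**Figure D1:**
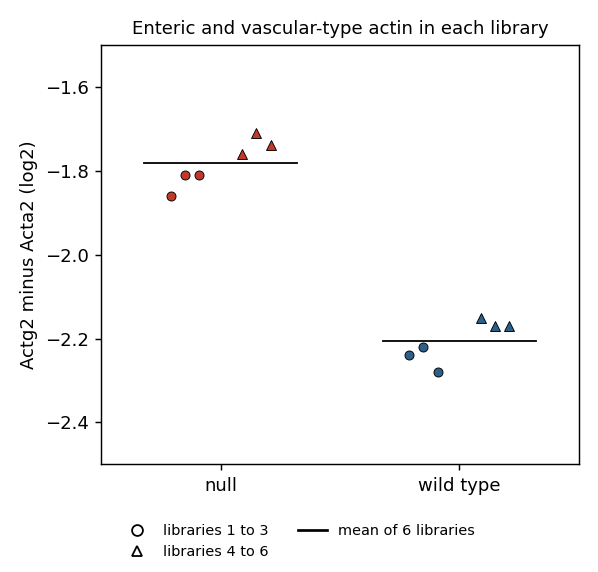
Actg2 minus Acta2 (log2) in each of the 6 null libraries (left) and 6 wild-type libraries (right), with circles for libraries 1 to 3, triangles for libraries 4 to 6 and lines for the mean of 6. The null libraries sit between -1.86 and -1.71, all above the wild-type libraries, which sit between -2.28 and -2.15.

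Myh11 encodes the heavy chain of smooth muscle myosin, the motor itself (ENSMUSG00000018830, chromosome 16, 14194535 to 14291372). Its values were 15.18 to 15.23 in null libraries 1 to 3 and, in null libraries 4 to 6, 14.05 to 14.18, against 14.28 to 14.44 in wild-type libraries 1 to 3 and 14.18 to 14.25 in wild-type libraries 4 to 6. Null libraries 1 to 3 stood apart above all others, and the remaining 9 libraries spanned less than their distance to that set. Reads ran to 38166 to 44774 in those 3 null libraries and to 13460 to 24029 in the other libraries. The difference of 0.39 was not called (SE 0.22, limma adjusted p = 0.135 over the 12 libraries). Without null libraries 1 to 3 it was -0.14 (adjusted p = 0.116), and without null libraries 4 to 6 it was 0.93 (adjusted p = 1.43e-06). Leaving out null library 5 alone gave 0.52 (adjusted p = 0.0487).

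Tagln and Cnn1 encode transgelin and calponin, actin-binding proteins of the thin filament, and calponin dampens myosin's ATPase. Tagln (ENSMUSG00000032085, chromosome 9, 45929619 to 45936058) was at 13.98 to 14.14 in null libraries, with a median of 14.07, against 14.49 to 14.54 in wild-type libraries, with a median of 14.52. The genotypes did not overlap, and the sets of a genotype lay close together, with differences of 0.08 in the null and 0.01 in wild type between libraries 1 to 3 and 4 to 6. Tagln had a difference of -0.44 (SE 0.07, limma adjusted p = 9.9e-05 over the 12 libraries), a 0.735-fold level in the null. It was called without any 1 of the 4 sets, and for set means it was not called (SE 0.32, adjusted p = 0.371).

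Cnn1 (ENSMUSG00000001349, chromosome 9, 22099216 to 22109630) was at 13.15 to 13.59 in null libraries, with a median of 13.39, against 13.54 to 14.12 in wild-type libraries, with a median of 13.79. It followed Acta2 closely, with a Pearson r of 0.998 over the 12 libraries, which share the same library scaling. The difference for Cnn1 was -0.43 (SE 0.13, limma adjusted p = 0.0103 over the 12 libraries, against 0.371 for set means). Without null libraries 4 to 6 it was -0.24 (adjusted p = 0.132), and without wild-type libraries 4 to 6 it was -0.20 (adjusted p = 0.179).

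Smtn and Lmod1 showed no call. Smtn encodes smoothelin, found in fully contractile smooth muscle cells, and lay at 10.43 to 11.13 in null libraries against 10.49 to 11.20 in wild-type libraries, a difference of -0.02 (SE 0.17, limma adjusted p = 0.929 over the 12 libraries). In the null its higher set was libraries 1 to 3 and in wild type libraries 4 to 6, as for Actg2. Lmod1 encodes leiomodin, which starts new actin filaments, and lay at 9.94 to 10.49 in null libraries against 10.22 to 10.42 in wild-type libraries, a difference of -0.09 (SE 0.09, limma adjusted p = 0.415 over the 12 libraries). Without null libraries 1 to 3 the Lmod1 difference was -0.29 and called (adjusted p = 0.00436). A p above the threshold does not show that levels were equal.

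Des encodes desmin, the intermediate filament protein of muscle (ENSMUSG00000026208, chromosome 1, 75360329 to 75368579). Des was at 13.06 to 13.17 in null libraries, with a median of 13.12, against 13.13 to 13.23 in wild-type libraries 1 to 3 and 13.78 to 13.89 in wild-type libraries 4 to 6. The higher values came from wild-type libraries 4 to 6 alone, and the other 3 sets lay close together. Its difference of -0.39 was called over the 12 libraries (SE 0.14, limma adjusted p = 0.0232) and was -0.07 without wild-type libraries 4 to 6 (adjusted p = 0.334). Without wild-type library 4, 5 or 6 alone it was -0.32 to -0.34 (adjusted p of 0.0524 to 0.0555). Without null libraries 1 to 3 or 4 to 6 it was -0.38 or -0.40 and not called (adjusted p = 0.1 and 0.0727).

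Synpo2 encodes synaptopodin 2, also called myopodin, which ties actin bundles to the dense bodies that anchor them (ENSMUSG00000050315, chromosome 3, 123076519 to 123236149). Synpo2 was at 11.48 to 11.56 in null libraries 1 to 3 and, in null libraries 4 to 6, 10.56 to 10.63, against 10.37 to 10.38 in wild-type libraries 1 to 3 and 10.10 to 10.26 in wild-type libraries 4 to 6. All null libraries were above all wild-type libraries, with null libraries 1 to 3 highest. The difference of 0.77, a 1.71-fold level, was called over the 12 libraries (SE 0.19, limma adjusted p = 0.00309). For set means it was not called (SE 0.32, adjusted p = 0.16). It was 0.31 without null libraries 1 to 3 (adjusted p = 0.00517) and 0.68 without wild-type libraries 4 to 6 (adjusted p = 0.0511).

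Myocd encodes myocardin, the coactivator that drives the contractile programme (ENSMUSG00000020542, chromosome 11, 65176561 to 65269989). Myocd was at 7.75 to 7.84 in null libraries 1 to 3 and, in null libraries 4 to 6, 6.44 to 6.53, against 5.84 to 6.56 in wild-type libraries 1 to 3 and 3.82 to 4.6 in wild-type libraries 4 to 6. Null libraries 4 to 6 and wild-type libraries 1 to 3 overlapped, and wild-type libraries 4 to 6 were near the filter at 4. The difference of 1.86 was the largest of the 10 genes and was called over the 12 libraries (SE 0.48, limma adjusted p = 0.00406), but not for set means (SE 0.72, adjusted p = 0.145). It was 1.20 without null libraries 1 to 3 (adjusted p = 0.0908) and 0.91 without wild-type libraries 4 to 6 (adjusted p = 0.0776).

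**Figure D2:**
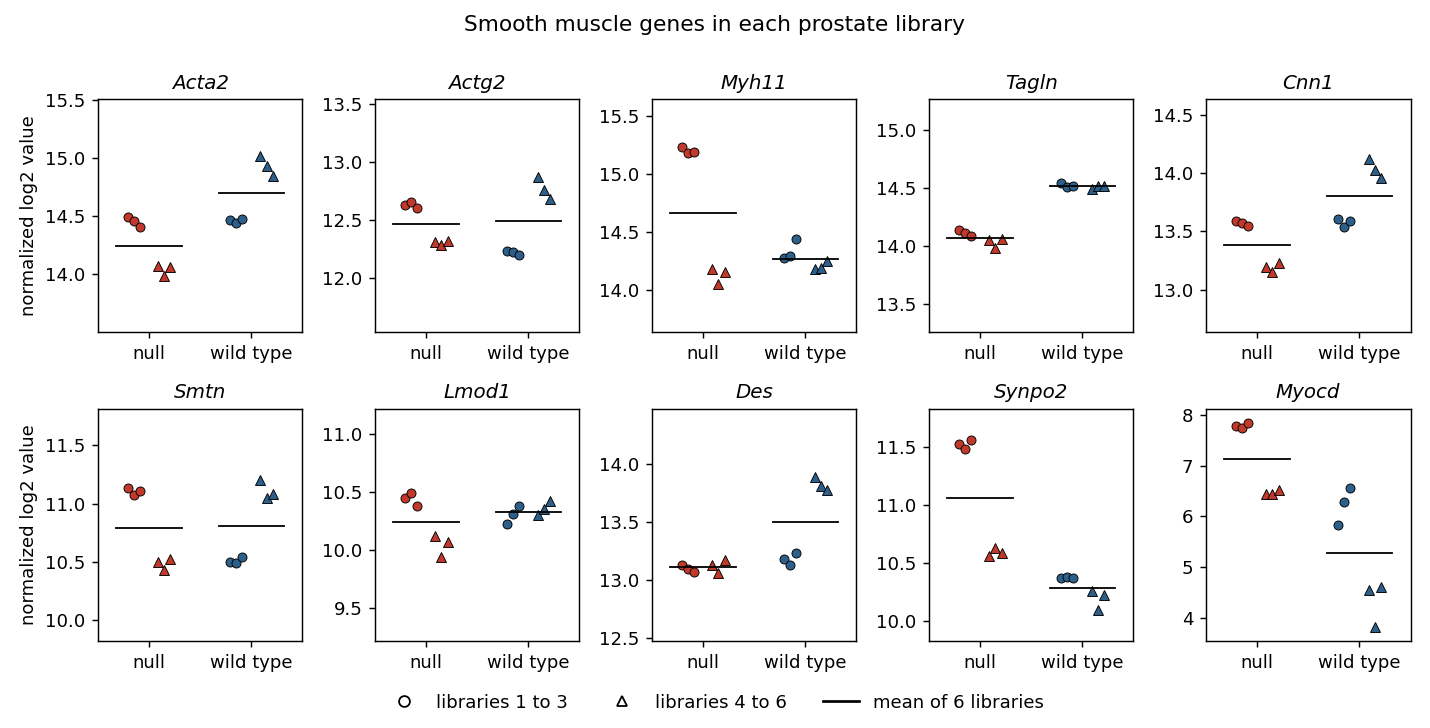
Normalized log2 values of the 10 genes in 6 null libraries (left in each panel) and 6 wild-type libraries (right), with circles for libraries 1 to 3, triangles for libraries 4 to 6 and lines for the mean of 6. Every panel spans 2 log2 units except Myocd, which has a wider axis. Tagln and Synpo2 are the genes whose genotypes do not overlap.

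Across the 10 genes, 6 were called over the 12 libraries, 2 higher (Myocd and Synpo2) and 4 lower (Tagln, Cnn1, Acta2 and Des) in the null. Of all genes tested 65.9% were called in that comparison, 34.1% higher and 31.8% lower, so 60% of the smooth muscle genes is near the background. Over the set means limma called 0 of the 10, with 2 at an unadjusted p under 0.05 (Myocd and Synpo2), where 4.09% of all genes were called, 2.15% higher and 1.93% lower. Between genotypes 2 of the 10 did not overlap, Synpo2 higher and Tagln lower in the null, against 44.2% of all genes, 21.5% higher and 22.7% lower. The median difference of the 10 was -0.06, beside 0.05 over all genes tested. For the 6 called genes the sign was the same in all 4 pairings of a null with a wild-type set, with the smallest difference -0.01 for Acta2 between libraries 1 to 3 of both genotypes.

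**Figure D3:**
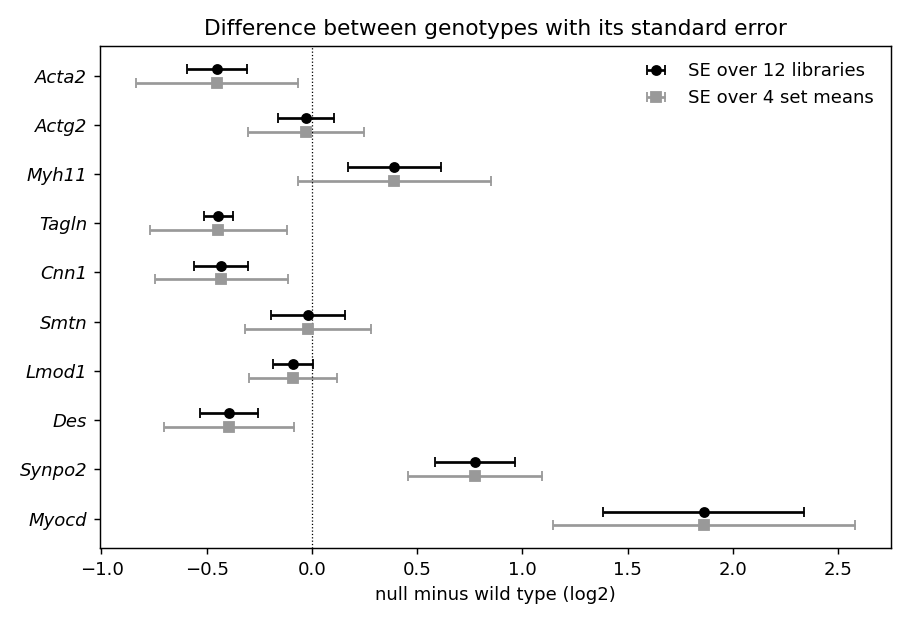
Difference between genotypes (null minus wild type, log2) for each gene, with the standard error over 12 libraries (black circles) and over the 4 set means (grey squares). Acta2, Tagln, Cnn1 and Des lie between -0.45 and -0.39, and Synpo2 and Myocd lie at 0.77 and 1.86, with wider errors over the set means for every gene.

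The calls moved with the scaling of the libraries. Scaling to library totals moved the median difference of all genes to 0.37. Under it 0 of the 10 were called lower and 5 higher (Myocd, Synpo2, Myh11, Actg2 and Lmod1), and Tagln, Acta2, Cnn1 and Des were at -0.13, -0.14, -0.12 and -0.08. Of all genes 53.2% were called higher and 16.1% lower with that scaling. Relative to that shift the 4 remained below the median of all genes. Under quantile normalization 0 were called lower as well, beside 33.8% of all genes. Synpo2 and Myocd were called higher there, beside 29.1% of all genes.

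Sets of a genotype also differed from each other. In the null 9 of the 10 genes were higher in libraries 1 to 3 than in libraries 4 to 6 without overlap, Des being the exception, with a median of 0.40 beside -0.03 for all genes tested. Of all genes 31.4% were higher in that way and 35.7% lower. In wild type 5 were lower in libraries 1 to 3 than in libraries 4 to 6 (Acta2, Actg2, Cnn1, Des and Smtn), without overlap. Another 3 were higher, and the median was -0.25 beside -0.01 for all genes tested. Of all genes 32.7% were lower and 29.2% higher in wild type in that way. The 10 genes together took 0.645% to 0.666% of the summed values in null libraries 1 to 3 and, in null libraries 4 to 6, 0.467% to 0.498%, against 0.476% to 0.495% in wild-type libraries 1 to 3 and 0.541% to 0.548% in wild-type libraries 4 to 6. Levels per kilobase of the longest transcript, on the log2 scale, put Tagln first (13.40 in null, 13.84 in wild type), then Acta2 (13.22 in null, 13.67 in wild type) and Cnn1 (12.13 in null and 12.56 in wild type). At the other end were Synpo2 (7.86 in null, 7.08 in wild type) and Myocd (4.78 in null, 2.92 in wild type). Myh11 stood above Des in the null (11.95 against 11.51) and below it in wild type (11.56 against 11.91), and these gaps are smaller than the 1.07 between the null sets for Myh11.

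Differences ran with transcript length, both over all genes and among the 10, where the Pearson r with log2 length was 0.643 (n = 10 genes in the same libraries, a description). The 4 genes called lower have longest transcripts of 1595 to 3028 bases, and the 2 called higher 5114 and 9203 bases. By quintile of transcript length, the median difference of all genes was -0.37 at a median of 963.5 bases, then -0.16, 0.01 and 0.18, and it reached 0.49 at a median of 6533 bases. Between the null sets (libraries 1 to 3 minus 4 to 6) the medians ran from -0.26 in the shortest to 0.22 in the longest quintile. Between the wild-type sets they ran likewise from -0.30 to 0.22. With the length trend removed from each library, limma over the 12 libraries called Des lower (-0.35, adjusted p = 0.0337) and Myocd higher (1.60, adjusted p = 0.00568). Synpo2 was then at 0.25 (adjusted p = 0.0979), Tagln at -0.18 (adjusted p = 0.0891), Acta2 at -0.25 (adjusted p = 0.127), Cnn1 at -0.29 (adjusted p = 0.0618) and Myh11 at 0.01. Actg2 has the shortest transcript, 1333 bases, and was higher relative to Acta2 (2035 bases) in the null. With the length trend removed, Actg2 differed by 0.27 and Acta2 by -0.25, beside -0.03 and -0.45 before. The ratio itself was not tested with the length trend removed. Whether RNA quality or library preparation differed with length was not tested.

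**Figure D4:**
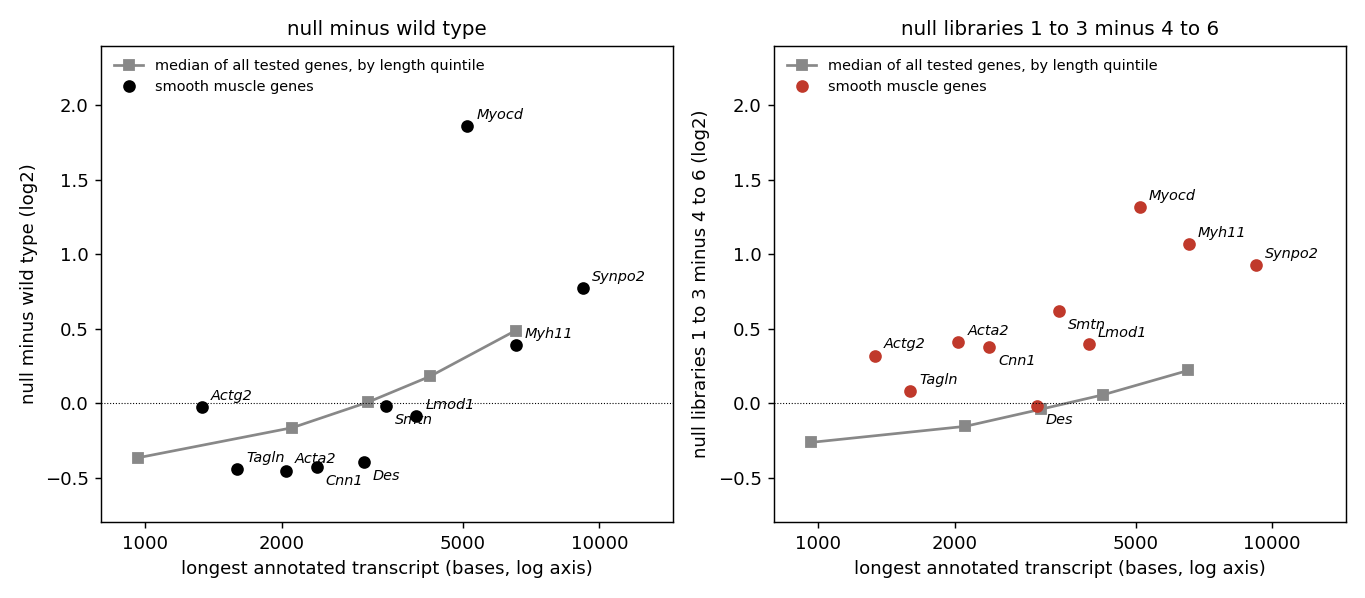
Differences on the log2 scale against the longest annotated transcript (bases, log axis), null minus wild type on the left and null libraries 1 to 3 minus 4 to 6 on the right. Dots are the 10 genes and grey squares the medians of all tested genes in each length quintile, which rise from -0.37 to 0.49 on the left and from -0.26 to 0.22 on the right.

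Acta2 and Cnn1, whose values ran closest together, have the promoters below (RefSeq, GRCm38.p6, 250 bases before to 50 after the annotated start, 5′ to 3′), shown because serum response factor acts through CArG boxes. Capitals mark stretches that match the CArG box with at most 1 mismatch in its 6 inner positions. The Acta2 window is chr19:34255324-34255623 on the minus strand and the Cnn1 window chr9:22099003-22099302 on the plus strand.
Acta2: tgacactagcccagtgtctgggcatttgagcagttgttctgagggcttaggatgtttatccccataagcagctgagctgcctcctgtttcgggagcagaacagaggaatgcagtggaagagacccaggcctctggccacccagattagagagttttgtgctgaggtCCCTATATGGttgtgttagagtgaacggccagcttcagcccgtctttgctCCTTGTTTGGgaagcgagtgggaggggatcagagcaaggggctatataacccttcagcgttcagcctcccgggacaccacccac
Cnn1: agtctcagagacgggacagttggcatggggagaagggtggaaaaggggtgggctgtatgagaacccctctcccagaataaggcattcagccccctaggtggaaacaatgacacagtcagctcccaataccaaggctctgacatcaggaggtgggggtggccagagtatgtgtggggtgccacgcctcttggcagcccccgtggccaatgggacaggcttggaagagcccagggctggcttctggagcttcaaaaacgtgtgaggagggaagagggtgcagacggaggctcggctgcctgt
Acta2 held 2 such stretches, CCCTATATGG at -84 and CCTTGTTTGG at -34 from the annotated start, each with 1 mismatch, and Cnn1 held 0. Promoter entries were matched for 6 of the 10 genes (Acta2, Cnn1, Des, Smtn, Synpo2 and Lmod1). An exact CArG box stood in 0 of the 6, beside 1.63% of all 32851 promoter windows, and a stretch with up to 1 mismatch in 1 of the 6, beside 9.98% of all windows. The CArG box reads the same on both strands, so a search of 1 strand covers both.

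Of 14 other contractile and thin-filament genes tested, 4 were called higher and 6 lower over the 12 libraries, while limma for set means called 0 and had 0 at an unadjusted p under 0.05, with a median difference of -0.09. The 10 called are 71.4% of the list, beside 65.9% of all genes tested (34.1% higher, 31.8% lower). The 4 with the lowest p were Cnn3, a non-muscle calponin (0.28, limma adjusted p = 0.000641), Actg1, cytoplasmic gamma actin (-0.32, adjusted p = 0.00434), Myh10, non-muscle myosin IIB (1.11, adjusted p = 0.00611), and Myl6, a myosin light chain (-0.54, adjusted p = 0.00647). Outside that rule, the regulatory light chain gene Myl9 was at 12.57 to 13.24 in null libraries and 13.00 to 13.79 in wild-type libraries, a difference of -0.46 (adjusted p = 0.0359). The kinase gene for that light chain, Mylk, followed Myh11 instead, with set means of 14.26 and 13.05 in the null against 13.23 and 13.08 in wild type (difference 0.50, adjusted p = 0.0874).

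Further lists cover genes that anchor the filaments and signal to them. Of 23 dense body, costamere and intermediate filament genes, 13 were called higher and 1 lower over the 12 libraries, with a median difference of 0.33 beside 0.05 for all genes. That is 60.9% of the list called, below the 65.9% of all genes, of which 34.1% were called higher. For set means limma called 0, with 5 at an unadjusted p under 0.05. The median transcript length of the list was 4211 bases. With the length trend removed 10 of the 23 were called, beside 62.5% of all genes. Sorbs2, an adaptor that links actin to adhesion sites, was at 11.62 to 11.96 in null libraries and 10.58 to 10.88 in wild-type libraries (difference 1.06, limma adjusted p = 4.18e-07 over the 12 libraries, against 0.05003 for set means). Svil, encoding supervillin, differed by 1.14, Vim, encoding vimentin, by 0.38 and Pdlim5 by 0.21, all without overlap between genotypes. Null libraries 1 to 3 were above null libraries 4 to 6 without overlap for all 23 genes, beside 31.4% of all genes tested.

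Contraction signalling genes numbered 26, of which 20 were called higher and 2 lower over the 12 libraries, with a median difference of 0.84. The 22 called are 84.6% of the list, beside 65.9% of all genes (34.1% higher). The number was 11 of 26 with the set as a random block, where 31.2% of all genes were called. Limma over the set means called 0 of them, with 10 at an unadjusted p under 0.05. Adra1a, the alpha-1A adrenergic receptor through which sympathetic nerves contract prostate smooth muscle, was at 7.07 to 7.79 in null libraries and 5.63 to 6.37 in wild-type libraries (difference 1.5, limma adjusted p = 4.67e-06 over the 12 libraries, against 0.0597 for set means). Itpr1, an inositol trisphosphate receptor that releases stored calcium, differed by 1.30 (adjusted p = 1.94e-05), and Gucy1a1, a subunit of the nitric oxide receptor guanylate cyclase, by 1.8 (adjusted p = 7.83e-05). Rock2, a kinase that keeps the light chain phosphorylated, differed by 0.55 (adjusted p = 9.37e-05). The median transcript length of this list was 5048 bases, against 3090 for all genes tested. With the length trend removed, 13 of the 26 were called in either direction, beside 62.5% of all genes. Without null libraries 1 to 3, 13 were called, beside 54.2% of all genes.

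Among 17 tested regulators of the contractile programme, 11 were called higher and 2 lower over the 12 libraries, against 1 higher for set means (5 at an unadjusted p under 0.05), with a median difference of 0.54. The 13 called are 76.5% of the list, against 65.9% of all genes (34.1% higher), and were 4 of 17 with the set as a random block, against 31.2% of all genes. Klf5, a transcription factor that epithelium also expresses, rose in both fits, at 8.38 to 8.57 in null libraries against 4.51 to 6.46 in wild-type libraries (difference 2.80, limma adjusted p = 5.17e-06 over the 12 libraries, against 0.0338 for set means). Srf, serum response factor itself, was at 9.65 to 9.85 in null libraries against 10.01 to 10.12 in wild-type libraries (difference -0.34, adjusted p = 6.41e-05 over the 12 libraries, against 0.232 for set means), opposite in sign to Myocd. Tead1 (0.96), a factor of the Hippo pathway, and Foxf1 (0.87), a forkhead factor of mesenchyme, did not overlap between genotypes. The myocardin-related cofactor genes Mrtfa and Mrtfb, outside the naming rule, differed by 0.26 and 0.20 (adjusted p = 0.0129 and 0.0122 over the 12 libraries).

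Summed marker levels are shares of library totals, a scale on which the median difference of all genes was itself 0.37 and 53.2% of all genes were called higher. On the authors' scale 65.9% of all genes were called, 34.1% higher and 31.8% lower, and each marker count below stands beside that share. Of 8 tested pericyte markers, which mark cells of the capillary wall that share contractile genes, 7 were called higher and 0 lower over the 12 libraries, and Notch3 also over the set means (8.29 to 8.93 in null libraries, 5.64 to 6.70 in wild-type libraries, adjusted p = 0.0236). Their summed level was 0.0115% to 0.0208% of a library in the null and 0.00587% to 0.00742% in wild type, and 0 of 9 listed genes were under 4 in every library. The list has a median transcript length of 4760 bases. With the length trend removed 6 of the 8 were called, beside 62.5% of all genes. Abcc9, Cspg4 and Rgs5 differed by 1.39, 0.81 and 0.90. Of 8 endothelial markers 6 were called higher and 1 lower, with summed levels of 0.0125% to 0.0176% in the null and 0.00775% to 0.00956% in wild type. Pecam1, Kdr and Cdh5 differed by 0.91, 1.12 and 1.07, and Emcn by -1.47. Of 12 fibroblast markers 6 were called higher and 2 lower, or 66.7% in all, near the share of all genes, with summed levels of 0.111% to 0.126% in the null and 0.0715% to 0.0815% in wild type, and Col1a2, Col1a1, Col3a1 and Pdgfra differed by 0.29, 0.44, 0.53 and 0.97. The 2 called lower, named after their values were seen, were Pi16 (-0.67) and Fbln1 (-0.18). No gene of these lists was under 4 in all libraries, and the part of these cells in the smooth muscle values was not tested.

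Nerve and glia markers were split between the null sets, with a median difference of 1.90 between libraries 1 to 3 and 4 to 6 over 8 tested genes. They summed to 0.0136% to 0.0146% of a library in null libraries 1 to 3 and, in null libraries 4 to 6, 0.00399% to 0.00447%, against 0.00336% to 0.00398% in wild type. Of the 8, 2 were called higher over the 12 libraries, or 25%, below the 65.9% of all genes, among them Ncam1 (1.89, also over the set means with adjusted p = 0.0255), while Sox10 and Tubb3 differed by 0.69 and 1.49 without a call. None was under 4 in every library, and their part was not tested. Vas deferens and epididymis markers were also highest in null libraries 1 to 3, with summed levels of 0.356% to 0.380% there, 0.00815% to 0.00887% in null libraries 4 to 6 and 0.00224% to 0.00317% in wild type. Spink8 and Defb2, above 4 in all 12 libraries, differed by 2.32 and 1.24 and were called higher over the 12 libraries. Akr1b7 was at 4.4 to 15.30 in null libraries and at most 3.03 in wild-type libraries. It entered the tests through the null libraries alone, so its call is not given, and 2 of the 6 listed genes were under 4 in every library. The same holds for the seminal vesicle genes Svs3a, Svs3b and Svs6, which were at least 11.73, 11.37 and 7.98 in null libraries and at most 3.83, 3.32 and 3.49 in wild-type libraries. Svs4 was at 14.55 to 16.45 in null libraries and 3.62 to 6.54 in wild-type libraries, and no calls are counted for that list. The summed seminal vesicle level does not stand for each gene. Svs4 and Svs3a had set means of 16.43 and 13.65 in null libraries 4 to 6, against 14.58 and 11.78 in null libraries 1 to 3. Svs3b was at 11.65 against 11.38, and Svs6 went the other way, at 8.11 against 9.175. So did Svs2 and Svs5, named outside the rule, at 11.37 against 21.03 and 13.26 against 18.93. Of the 7 tested genes of that list, 4 were higher in null libraries 1 to 3 and 3 in null libraries 4 to 6, without overlap. Acta2, Cnn1 and Tagln lay below both wild-type sets in null libraries 4 to 6. In null libraries 1 to 3 Tagln lay below both, while Acta2 and Cnn1 overlapped wild-type libraries 1 to 3. The seminal vesicle and vas deferens have thick smooth muscle walls, and their part in the values of either null set was not tested.

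Striated muscle, such as the urethral sphincter, shares Des with smooth muscle. Of 18 striated markers 7 were under 4 in every library, Myod1 and Myog among them, and 8 could be tested, 2 called higher and 1 lower. The 3 called are 37.5% of the 8, beside 65.9% of all genes. Their summed level was 0.0226% to 0.0249% in the null and 0.0181% to 0.0214% in wild type, shares that are mostly Acta1, since no other gene of the list exceeded 8.72 in any library. Neb, encoding nebulin, differed by 1.99 and Ttn, encoding titin, by 1.27, with highest values of 7.54 and 6.45 in null libraries, whereas Tnnt1 differed by -0.79 and Ckm by 0.61. Tnnt1, a slow troponin, had set means of 6.07 and 5.87 in the null against 6.22 and 7.30 in wild type, so it was highest in wild-type libraries 4 to 6, as Des was. Acta1, named outside the rule, was at 11.63 to 11.79 in null libraries and 11.66 to 11.99 in wild-type libraries, a difference of -0.10 that was not called (limma adjusted p = 0.228). The part of striated muscle in the values of Des was not tested. Epithelial markers had a lower summed level in null libraries 1 to 3 (0.302% to 0.308%) than in libraries 4 to 6 of the same genotype (0.423% to 0.436%), with 0.276% to 0.337% in wild type. Of 10, 6 were called higher and 2 lower over the 12 libraries (80% called, beside 65.9% of all genes, 34.1% higher and 31.8% lower), among them Trp63 (1.44, also over the set means with adjusted p = 0.0237), Krt5 (0.57), Cdh1 (0.28) and Krt18 (-1.13). Outside the naming rule, Krt14 (-0.59) was the other gene called lower. The others called higher were Krt15 (0.61), Epcam (0.44) and Krt19 (0.43), so basal and luminal keratins each went both ways.

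**Figure D5:**
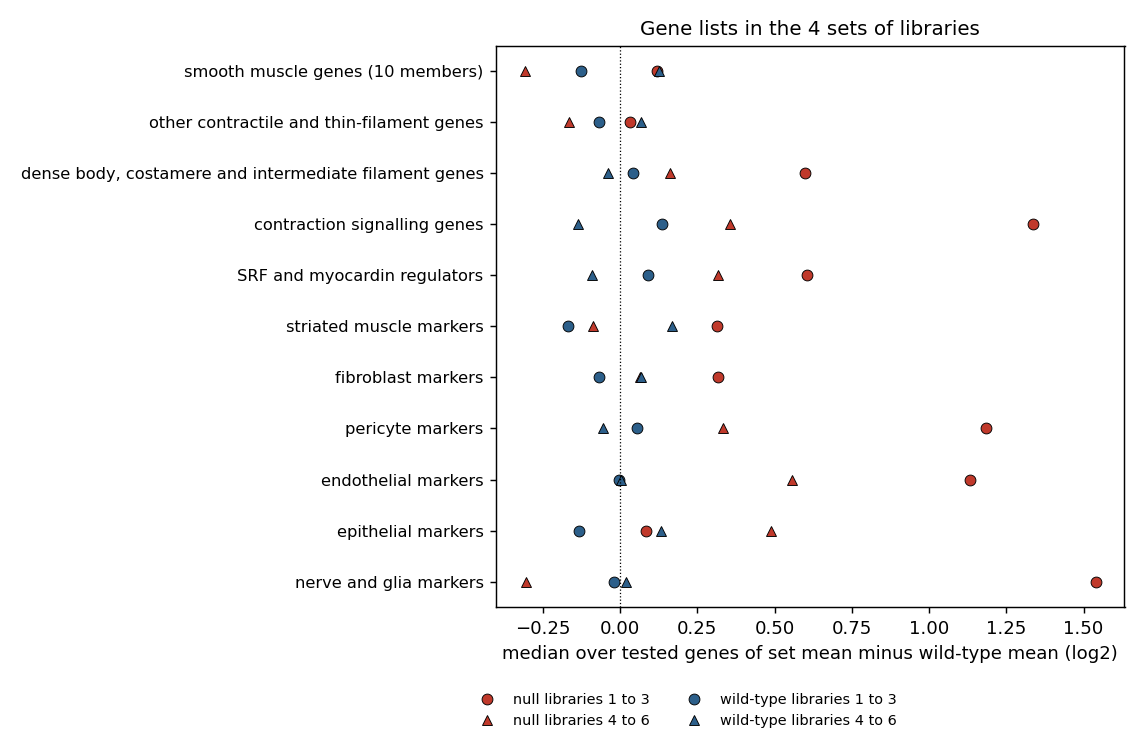
Median over the tested genes of each list of the set mean minus the mean of all wild-type libraries (log2), for null libraries 1 to 3 and 4 to 6 and wild-type libraries 1 to 3 and 4 to 6. The contraction signalling, pericyte, endothelial and nerve lists stand at 1.34, 1.18, 1.13 and 1.54 in null libraries 1 to 3, while the 10 smooth muscle genes stand at 0.12 there and at -0.31 in null libraries 4 to 6.

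The genes whose pattern was most like the mean of the 10 standardized genes over the 12 libraries were Rprm, Hmgcs1, Bex4, Penk, Pnmal2, St3gal3, Adamdec1 and Papss2, with Pearson r of 0.956 to 0.982. The 12 points share the library scaling and fall into 4 sets, so these values are a description. The 10 genes did not share 1 pattern, with r between pairs from -0.881 (Des and Myocd) to 0.998 (Acta2 and Cnn1). Hmgcs1, an enzyme of cholesterol synthesis, had set means of 9.95 and 8.98 in the null against 9.36 and 9.84 in wild type. Penk, which encodes the opioid precursor proenkephalin, had set means of 10.25 and 9.73 in the null against 10.05 and 10.31 in wild type. As in that mean, by which these genes were chosen, null libraries 1 to 3 and wild-type libraries 4 to 6 were the higher sets. Penk and Hmgcs1 differed between genotypes by -0.20 and -0.13.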

How the data were processed

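Prostate RNA was enriched for poly-A and sequenced on an Illumina HiSeq2000 as reads of 100 bases, per the labels' protocols. Per the submitters' processing notes, DESeq, Cufflinks, TopHat and CASAVA 1.8.2 were used, and GRCm38.p2 and mm9 are both listed as builds, with no role for either. The deposited table holds log2 values that the authors had normalized between libraries, with 39179 Ensembl genes of which 37607 (96.0%) matched a symbol in the GENCODE M21 annotation of GRCm38. For the exact transform and strand setting, the sources used here give nothing. Reads were recovered from linear values of 2400 to 5800 by a factor and an offset per library. All of those values, and 96.6% to 99.3% of higher ones up to 60000, then came within 0.1 of a whole number, against 20% by chance. For lower values the share was 19.6% to 21.3%, so no count test was possible.

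A gene entered the tests if 6 or more libraries had values of 4 or above. Limma tests, two-sided (version 3.58.1, with trend, under R 4.3.3), used the Benjamini-Hochberg adjustment across 16197 genes, once for the 12 libraries and once for 4 set means. Both fits were also run on simulated data in which libraries varied independently. Those data held no sets, so that run cannot show how the fits behave with the sets seen here. Python 3.11.15 and scipy 1.17.1 gave the exact permutation test, promoter matches and figures. SE values in the results are limma's moderated ones. The members, lists and tests were chosen with earlier results of these data known. Named genes are the 10 members and, of every other list, the 4 genes whose limma p across the 12 libraries was lowest. Others (Myl9, Mylk, Mrtfa, Mrtfb, Acta1, Myod1, Myog, Pi16, Fbln1, Krt14, Krt15, Krt19, Epcam, Svs2 and Svs5) were chosen after their values were seen. The targeted gene and 1 gene that the rule names are not reported here.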

Additional observations from a re-analysis of the deposited data

Results flagged for a closer look

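Akr1b7, an aldo-keto reductase gene of the vas deferens list, stood at 1.33 in wild-type library 3, far below the other wild-type libraries, which lay at up to 3.03. Of 114 groups of 6 libraries looked at over 57 genes this was the only 1 with a library set so far apart, and chance gives about 1 such group in 20. All 6 values are below the filter at 4. None of the 10 smooth muscle genes had such a library in either genotype.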

How the results depend on the processing

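Calls over the 12 libraries for the 10 genes were 2 higher and 4 lower. They were 5 higher and 0 lower with library totals (all genes 53.2% and 16.1%), 0 lower with quantile normalization (33.8%), 1 lower at an adjusted p of 0.01, 1 higher and 1 lower with the length trend removed (30.8% and 31.8%), and 2 lower with the set as a random block (17.1%). They were 1 higher without null libraries 1 to 3 (26.9% of all genes) and 1 lower without null libraries 4 to 6 (33.7%). Without wild-type libraries 4 to 6 they were 0 higher and 1 lower (27.2% and 26.6%). Leaving out each library in turn gave 2 to 3 higher and 3 to 4 lower. Of all genes 31.2% to 33.9% were then called higher and 29.9% to 31.7% lower. Over the set means the counts stayed at 0 in each alternative but 1, including leaving out each library in turn (0 to 0), and were 2 higher without null libraries 4 to 6, where 11% of all genes were called higher. There 1 null set mean stands alone and is assumed to vary as the wild-type sets do. That fit and the removal of the length trend were chosen after seeing the data. The median difference of -0.06 was 0.26 with library totals, -0.31 without null libraries 1 to 3, -0.31 without wild-type libraries 1 to 3, and -0.11 to -0.01 when each library was left out. Actg2 minus Acta2 stayed at 0.41 to 0.44 when each library was left out. Genes called with the set as a random block were 3 of 14 other contractile, 9 of 23 dense body, 11 of 26 signalling and 4 of 17 regulator genes, against 10, 14, 22 and 13, while all genes called were 31.2% against 65.9%. The cause was not tested.

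Differences near 0 changed sign in some settings. Actg2 (-0.03) was 0.29 with library totals, 0.049 with the upper quartile, 0.29 with quantile normalization, 0.27 without the length trend, 0.034 with library weights, 0.13 without null libraries 4 to 6, 0.25 without wild-type libraries 4 to 6 and -0.087 to 0.047 when each library was left out. Smtn (-0.02) was 0.30, 0.058 and 0.15 with those 3 scalings, 0.062 with library weights, 0.29 without null libraries 4 to 6, 0.28 without wild-type libraries 4 to 6 and -0.087 to 0.059 when each library was left out (-0.033 to 0.0041 for set means). Lmod1 was 0.23 with library totals, 0.030 with quantile normalization and 0.11 without null libraries 4 to 6. Myh11 was -0.14 without null libraries 1 to 3. No paired analysis was possible because the labels give the libraries of the 2 genotypes no shared replicate numbers. Counting error is small for the 6 most abundant genes (4352 to 44774 reads), and Myocd is limited by its low values in wild-type libraries 4 to 6.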
